A study of Mus musculus and Rattus norvegicus with 32 samples.

Results

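The 8 genes described here are the glucocorticoid-responsive genes Fkbp5, Tsc22d3, Zbtb16, Sgk1 and Per1, the metallothioneins Mt1 and Mt2, and Hif3a. They were taken by symbol from the 4 deposited count tables, which list 55487 genes in mouse and 32883 in rat, and all 8 symbols were found (the rat table gives Mt2 as Mt2A). The group was chosen by measured values, since Mt2 and Hif3a had been seen to be higher in Mettl5-cKO hearts at 3 months, so that contrast is given as a description, without a test. The other contrasts come from other animals or cells and were tested. The correlations within groups also use the 3-month-old hearts, after group means were subtracted.

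The series holds 32 libraries in 8 groups of 4. Hearts of C57BL/6 mice were sequenced at 1 month (control and Mettl5-KO, a deletion in the whole body), at 3 months without surgery (control and Mettl5-cKO) and at 4 weeks after transverse aortic constriction, TAC, which loads the left ventricle by narrowing the aorta (control and Mettl5-cKO, both labelled 3 months old). In the Mettl5-cKO mice, Cre driven by the Myh6 promoter removes exons 2 to 4 of Mettl5, a methyltransferase of ribosomal RNA, from cardiomyocytes, and the other cells of the heart keep the gene. The controls were littermates, whose own alleles are not given, and neither are the sexes and the time of day at which hearts were taken. Neonatal rat ventricular cardiomyocytes (NRVMs) of Sprague Dawley pups at postnatal day 2 were grown without serum, infected with adenovirus carrying GFP (AdGFP) or human METTL5 (AdMettl5), and all were then treated with 20 µM of the adrenergic agonist phenylephrine (PE) for 24 h. Libraries are numbered from 1 to 4 within a group.

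Cortisol in humans and corticosterone in rodents bind the glucocorticoid receptor, which is held in the cytoplasm by heat shock proteins and moves to the nucleus to act on response elements in the DNA. FKBP5 is a co-chaperone that lowers the affinity of the receptor for hormone and is itself induced by it. TSC22D3 (GILZ), ZBTB16 (PLZF), the kinase SGK1 and the clock protein PER1 are further standard readouts of the receptor. Metallothioneins are small cysteine-rich proteins that bind zinc and copper, and their genes respond both to metal, through the factor MTF1, and to glucocorticoids. HIF3A is a relative of the hypoxia-inducible factors, and some of its forms hold the other family members back.

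On GRCm38 (GENCODE vM21), Mt2 lies on the plus strand of chromosome 8 from 94172664 to 94173568 and Mt1 from 94179082 to 94180327, so that 5513 bases separate the end of Mt2 from the start of Mt1. Hif3a lies on the minus strand of chromosome 7 from 17031507 to 17062427, Fkbp5 on the minus strand of chromosome 17 from 28399094 to 28517527, and Zbtb16 on the minus strand of chromosome 9 from 48654297 to 48836222. Tsc22d3 lies on the minus strand of chromosome X from 140539528 to 140600659, Sgk1 on the plus strand of chromosome 10 from 21882184 to 21999903, and Per1 on the plus strand of chromosome 11 from 69095217 to 69109960. Hif3a, Mt2 and Fkbp5 overlap annotated genes on the other strand (4833404L02Rik with Hif3a, Gm45774 with Mt2, AC154912.1 and Gm22146 with Fkbp5), and whether counting used the strand is not stated, which leaves their counts uncertain. Fkbp5 also overlaps AC154912.5 and AC154912.3 on its own strand, which counting by strand would not separate from it.

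The promoters below show which known elements lie next to the start of the metallothionein genes and 1 start of Sgk1, from RefSeq on GRCm38.p6. Sgk1 has several annotated starts, and this start was printed because its window held a match. Each promoter runs 5′ to 3′ from 250 bases before an annotated start to 30 bases after it. The capitals in Mt1 (chr8:94178839-94179118, plus strand) and Mt2 (chr8:94172368-94172647, plus strand) mark the core of the metal response element, TGCACNC or TGCGCNC on either strand. Those in Sgk1 (chr10:21993640-21993919, plus strand) mark a full glucocorticoid response element, AGAACA and TGTTC with 3 bases between them on either strand. In Sgk1 the matches on both strands overlap and are marked as a single stretch.
Mt1: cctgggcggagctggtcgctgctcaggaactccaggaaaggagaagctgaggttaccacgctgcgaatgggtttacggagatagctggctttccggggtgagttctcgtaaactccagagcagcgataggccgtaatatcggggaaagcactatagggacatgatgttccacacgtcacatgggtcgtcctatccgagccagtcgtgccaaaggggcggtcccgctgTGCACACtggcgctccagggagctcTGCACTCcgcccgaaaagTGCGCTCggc
Mt2: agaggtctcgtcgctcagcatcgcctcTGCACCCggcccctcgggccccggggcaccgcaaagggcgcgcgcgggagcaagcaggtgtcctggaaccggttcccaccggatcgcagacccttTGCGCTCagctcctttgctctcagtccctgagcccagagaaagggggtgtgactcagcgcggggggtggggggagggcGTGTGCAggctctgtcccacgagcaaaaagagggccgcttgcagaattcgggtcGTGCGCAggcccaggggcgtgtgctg
Sgk1: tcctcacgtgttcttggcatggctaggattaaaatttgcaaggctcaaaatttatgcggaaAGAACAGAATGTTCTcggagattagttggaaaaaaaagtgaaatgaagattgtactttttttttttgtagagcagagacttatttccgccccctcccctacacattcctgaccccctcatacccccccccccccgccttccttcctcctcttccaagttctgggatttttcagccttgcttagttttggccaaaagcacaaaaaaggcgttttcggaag

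In windows of 300 bases (250 before and 50 after a start), Mt1 held 3 metal response element cores and Mt2 held 4. Of all 32851 promoter windows of RefSeq, 25.7% held at least 1 such core, 1.31% at least 3 and 0.295% at least 4. Of the 15 windows of the members 5 held at least 1, those of Mt1 and Mt2 and 1 each of Hif3a, Per1 and Sgk1. The full glucocorticoid response element was found in 16 of all windows (0.0487%). Only 1 of the several windows of Sgk1 was among them, and no other of the 15 windows of the members. The hypoxia response element core (ACGTG or GCGTG) was found in 11 of these 15 windows and in 43.8% of all windows. Zbtb16 was not searched. These are matches of letters in short windows, and no binding was measured.

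Each heart library held between 19899033 and 21804907 counts, and each NRVM library between 14324700 and 18085339. Levels are given below as normalized counts (CPM, counts relative to the depth of the library after scaling the libraries to each other), and SE stands for the standard error of a log2 fold change. Mettl5 itself, counted over the whole gene, ranged from 4.77 to 6.39 CPM in controls and from 5.55 to 7.22 in Mettl5-KO hearts at 1 month, from 6.69 to 7.78 and 5.41 to 6.98 at 3 months, and from 5.45 to 6.90 and 5.48 to 7.19 after TAC, so this count overlapped between genotypes, and the grouping is that of the labels. The paper reports hardly any reads over the deleted exons in Mettl5-cKO hearts, which a count over the whole gene cannot show. In NRVMs the rat Mettl5 gene ranged from 16.2 to 18.03 CPM with AdGFP and from 19.1 to 23.0 with AdMettl5, whose own insert is human. Cardiomyocyte genes were high in every heart library (a summed 25895 to 54318 CPM over 11 markers), while 5 to 7 of the 7 adipocyte markers had no count in any library of a heart table.

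Per kilobase of annotated exon, Mt1 was the highest of the 8 genes in the hearts and Hif3a the lowest. In 3-month-old controls Mt1 stood at 182 ± 22.3 CPM per kilobase, Mt2 at 42.2 ± 7.88, Tsc22d3 at 14.0 ± 5.45, Sgk1 at 12.9 ± 2.80, Per1 at 11.5 ± 3.93, Zbtb16 at 6.59 ± 9.25, Fkbp5 at 2.53 ± 1.74 and Hif3a at 0.214 ± 0.0840 (SD, n = 4). Hif3a therefore rested on few reads, with 21 to 47 counts in a library of that group. Across the 6 heart groups, the highest group mean was 7.83 times the lowest for Mt2 and 5.84 times for Fkbp5, against 1.59 times for Per1 and 1.75 times for Tsc22d3. When the groups were ordered by their means, neighbours overlapped in 39 of 40 cases over the 8 genes. The exception was Mt1, whose 4 control libraries after TAC (295 to 363 CPM) all lay above the 4 control libraries of 3 months (190 to 257 CPM). These control groups differ in surgery and were deposited separately, and the share of all genes that separate them was not counted.

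**Figure D1:**
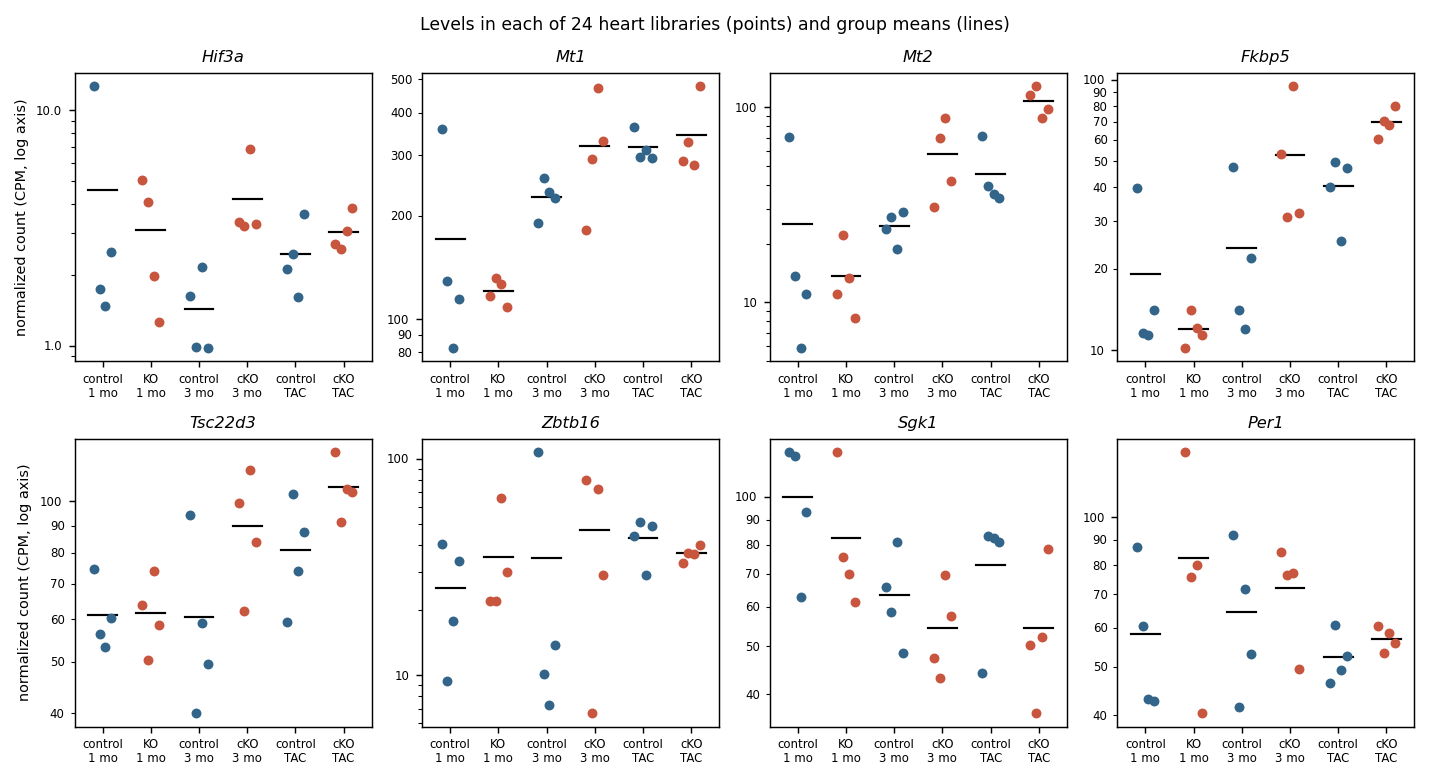
Normalized counts (CPM, log axis) of the 8 genes in each of the 24 heart libraries, with controls in blue, Mettl5-KO and Mettl5-cKO in red and group means as lines. Control library 1 at 1 month lies far above the other controls of that age for Hif3a, Mt1, Mt2 and Fkbp5, and Mt2 and Fkbp5 are higher in all Mettl5-cKO hearts than in all controls after TAC.

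The 3-month-old hearts, the contrast that chose the group, showed Hif3a and Mt2 higher in every Mettl5-cKO library than in any control. Hif3a stood at 1.62, 0.990, 2.15 and 0.974 CPM in the controls and at 3.36, 3.24, 6.85 and 3.28 in the Mettl5-cKO hearts. Its log2 fold change was 1.54 (SE 0.33). Mt2 stood at 23.8, 27.5, 18.7 and 29.1 CPM in the controls and at 30.9, 69.6, 88.6 and 42.0 in the Mettl5-cKO hearts, a log2 fold change of 1.22 (SE 0.30). The lowest Mettl5-cKO library of Mt2 was close to the highest control. Among all 16391 genes, 2.12% had groups that did not overlap with Mettl5-cKO higher, and 0.0732% had an adjusted p under 0.05.

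The other members overlapped between the genotypes at 3 months. For Fkbp5 the log2 fold change was 1.14 (SE 0.48), Tsc22d3 of 0.57 (0.26), Mt1 of 0.49 (0.24), Zbtb16 of 0.43 (0.92), Per1 of 0.16 (0.24) and Sgk1 of -0.22 (0.18). Fold changes were thus above 0 for 7 of the 8 genes, as they were for 50.3% of all genes. The widest spread was that of Zbtb16, at 108, 10.1, 7.31 and 13.7 CPM in the controls and at 79.8, 6.65, 72.9 and 29.1 in the Mettl5-cKO hearts. Control library 1 and Mettl5-cKO libraries 1 and 3 held the 3 highest values of Zbtb16, and the same 3 libraries held the 3 highest values of Fkbp5 and of Tsc22d3. Without control library 1, the log2 fold change of Zbtb16 moved to 2.18 and that of Fkbp5 to 1.72. Without Mettl5-cKO library 1 that of Zbtb16 moved to 0.05, and without Mettl5-cKO library 3 that of Fkbp5 moved to 0.69 and that of Mt1 to 0.25. The standard deviation of log2 CPM of Zbtb16 was 1.74 in these controls and 1.65 in these Mettl5-cKO hearts, larger than that of 99.3% and 99.2% of 17597 genes.

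Marker genes of other cell types also differed between the genotypes at 3 months. The 6 atrial markers summed to between 93.0 and 151 CPM in controls and between 198 and 327 in Mettl5-cKO hearts, without overlap. The median log2 fold change of the 3 atrial markers that passed the filter was only 0.25. The paper lists Nppa, an atrial marker here and a marker of hypertrophy there, as higher in Mettl5-cKO hearts of this age. The 9 fibroblast markers ranged from 443 to 584 CPM and from 543 to 782, and the 8 macrophage markers from 149 to 196 and from 186 to 267, with median log2 fold changes of 0.49 and 0.39. The 11 cardiomyocyte markers ranged from 49666 to 54318 CPM and from 43720 to 50754. Their part in the values of the 8 genes was not tested.

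At 1 month, none of the 8 genes passed the test between Mettl5-KO and control hearts. Adjusted p was between 0.973 and 0.999 for the 8 (edgeR), 0 of the 8 had an unadjusted p under 0.05, and DESeq2 called 0 of them. Over all 16329 genes edgeR called 1 (0.00612%), while 747 had an unadjusted p under 0.05 and DESeq2 called 12. The values of Hif3a, Mt1, Mt2 and Fkbp5 at this age turned on a single control heart. Control library 1 held 12.7 CPM of Hif3a, where the other controls held 1.74, 1.47 and 2.50. Mt2 stood at 71.0 CPM in that library and at 13.7, 5.83 and 11.1 in the other controls, Mt1 at 357 against 129.5, 82.4 and 114, and Fkbp5 at 39.8 against 11.6, 11.4 and 14.1. That heart therefore exceeded the highest of the other 7 libraries of its age by 2.50 times for Hif3a, 2.70 times for Mt1, 3.196 times for Mt2 and 2.83 times for Fkbp5. It did not for Zbtb16, where Mettl5-KO library 3 was higher (66.2 against 40.3 CPM), or for Per1, where Mettl5-KO library 1 was higher (135 against 87.0 CPM). Sgk1 in it (123 CPM) was level with the highest Mettl5-KO library (123 CPM).

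With control library 1, the log2 fold changes at 1 month were -0.60 for Hif3a (SE 0.72), -0.50 for Mt1 (0.40), -0.90 for Mt2 (0.70) and -0.70 for Fkbp5 (0.39). Without it they were 0.70 for Hif3a (0.47), 0.16 for Mt1 (0.15), 0.43 for Mt2 (0.36), and -0.05 for Fkbp5, and none passed the test. Other genes turned on other hearts, with Zbtb16 going from 0.47 to -0.04 without Mettl5-KO library 3 and Per1 from 0.51 to 0.16 without Mettl5-KO library 1, while Tsc22d3, at 0.01, changed sign when any 1 of 4 libraries was left out. Control library 1 also had the lowest sum of the 11 cardiomyocyte markers (25895 CPM, where the other libraries of 1 month ranged from 31224 to 41327). It had the highest sum of the 6 atrial markers (769 CPM, with 132.6 to 204 in the other controls and 67.9 to 102 in Mettl5-KO hearts). Its sum of the 8 macrophage markers was also the highest (331 CPM, with 155 to 229.6 in the other libraries). Its immediate early genes summed to 762 CPM, like control library 2 (763.5) and Mettl5-KO library 1 (743.5), which held 1.74 and 5.06 CPM of Hif3a. The atrial sums did not overlap between the genotypes at 1 month. Nor did the sums of the 8 endothelial markers (1640 to 1740 CPM in controls and 1257 to 1620 in Mettl5-KO hearts). No tested marker of either list was called. In a bulk heart, fewer cells of a type and less RNA per cell cannot be told apart, and the part of these marker differences in the values of the 8 genes was not tested.

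After TAC, Mt2 and Fkbp5 were higher in Mettl5-cKO hearts and the other 6 genes did not pass the test. Mt2 stood at 71.6, 39.7, 36.1 and 34.5 CPM in the controls and at 115.7, 128, 88.2 and 98.1 in the Mettl5-cKO hearts, means of 45.5 ± 17.6 and 107.6 ± 17.9 (SD, n = 4). Every Mettl5-cKO library thus lay above every control. For Mt2 the log2 fold change was 1.23 (SE 0.23, adjusted p = 0.0148 in edgeR). The exact two-sided permutation test gave p = 0.0286, the smallest it can give. Fkbp5 stood at 40.04, 49.5, 25.3 and 47.0 CPM in the controls and at 60.3, 70.2, 68.1 and 79.9 in the Mettl5-cKO hearts, again without overlap. For Fkbp5 the log2 fold change was 0.77 (SE 0.19, adjusted p = 0.0318 in edgeR), and the exact permutation test gave p = 0.0286. The 2 genes called of 8 stand beside 12.7% of all 16340 genes called and 6.57% called higher. The groups did not overlap, with Mettl5-cKO higher, for 10.2% of all genes. With an absolute log2 fold change over 1 asked for as well, Mt2 was called and Fkbp5 was not, and 2.9% of all genes were.

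The calls after TAC depended on the fit. DESeq2 gave an adjusted p of 6.69e-06 for Mt2 and 0.00116 for Fkbp5. Without control library 4, where the calls over all genes fell from 2071 to 479, the adjusted p of Mt2 rose to 0.0516 and that of Fkbp5 to 0.0628 (edgeR), so neither was called. Fkbp5 was also not called without control library 1, without Mettl5-cKO library 2 or 3, or when genes with low counts were kept (adjusted p between 0.0604 and 0.0837 in these fits), while its log2 fold change stayed between 0.61 and 0.91 in all alternatives and that of Mt2 between 1.12 and 1.54.

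Tsc22d3, the anti-inflammatory leucine zipper protein, had 81.0 ± 18.7 CPM in controls and 106 ± 13.5 in Mettl5-cKO hearts after TAC, with 1 control (103 CPM) above the lowest Mettl5-cKO library (91.3 CPM). The log2 fold change of Tsc22d3 was 0.38 (SE 0.16, adjusted p = 0.146 in edgeR). Hif3a stood at 2.11, 2.44, 1.61 and 3.62 CPM in controls and at 2.71, 2.58, 3.08 and 3.83 in Mettl5-cKO hearts, and the groups overlapped (log2 fold change 0.30, SE 0.24, adjusted p = 0.430 in edgeR). Mt1, the neighbour of Mt2, differed little, with 317 ± 31.8 and 344 ± 90.8 CPM (SD, n = 4; log2 fold change 0.11, SE 0.17, adjusted p = 0.707 in edgeR), and its difference was -0.09 without Mettl5-cKO library 4. Zbtb16 was at -0.25 (SE 0.16), Sgk1 at -0.44 (0.25) and Per1 at 0.11 (0.09) on the log2 scale, with adjusted p of 0.316, 0.279 and 0.448 (edgeR). Without control library 3, Zbtb16 was lower in Mettl5-cKO hearts (log2 fold change -0.40, adjusted p = 0.0443). In Mettl5-cKO hearts after TAC, Zbtb16 ranged only from 33.0 to 39.9 CPM, where the 3-month-old Mettl5-cKO hearts ranged from 6.65 to 79.8 CPM.

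Marker genes of several cell types also differed between the genotypes after TAC, where 6.57% of all genes were called higher and 6.1% lower. The summed 9 fibroblast markers ranged from 597 to 781 CPM in controls and from 940 to 2983 in Mettl5-cKO hearts, with 7 of 9 called higher, and the 8 macrophage markers from 220 to 288 and from 299 to 388, with 3 of 8 called higher. The 11 cardiomyocyte markers ranged from 45317 to 51298 CPM in controls and from 34856 to 44742 in Mettl5-cKO hearts, with 2 called lower, and the 8 endothelial markers from 1193 to 1409 and from 806 to 1080, with 5 called lower. Of these lists the 6 atrial markers shifted most, from between 329 and 532 CPM in controls to between 2163 and 6041 in Mettl5-cKO hearts, with 2 of 3 tested called higher and a median log2 fold change of 2.66. Most of that sum was Nppa (422 ± 97.5 and 4781 ± 1775 CPM), which the paper uses as a marker of hypertrophy. Whether the number of cells or the RNA per cell changed was not tested. The part of all these markers in the values of Mt2 and Fkbp5 was not tested either.

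**Figure D2:**
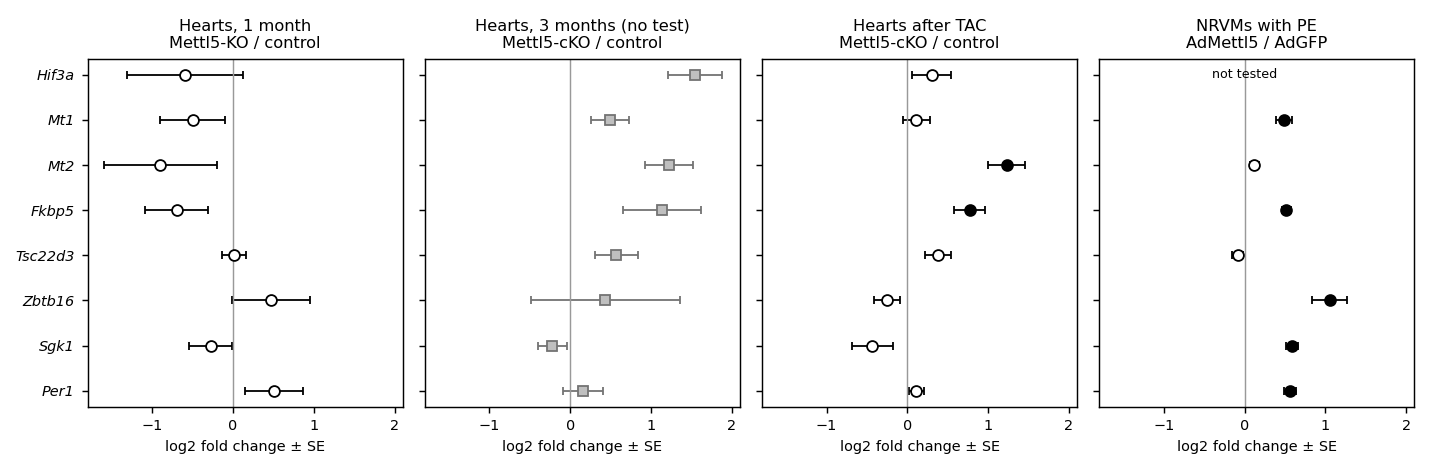
Log2 fold change (points) with its standard error (bars) of each gene in the 4 comparisons, where filled circles have an adjusted p under 0.05, open circles do not, and grey squares were not tested (Mt2A stands in the row of Mt2 in NRVMs). Mt2 and Fkbp5 pass after TAC, and Mt1, Fkbp5, Zbtb16, Sgk1 and Per1 pass in NRVMs.

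Set beside unstressed hearts of 3 months, which share no library with the TAC groups but come from a separate table, Mt2 was higher after TAC in both genotypes. The log2 difference of Mt2 was 0.87 (SE 0.30) in controls and 0.89 (0.29) in Mettl5-cKO hearts. Hif3a was at 0.77 (0.32) in controls and at -0.46 (0.29) in Mettl5-cKO hearts, so that its genotype difference was 1.23 smaller on the log2 scale after TAC than at 3 months (difference -1.23, SE 0.44). For Mt2 the same difference was 0.02 (0.42) and for Fkbp5 -0.35 (0.57). Mt1 was at 0.48 (0.22) in controls and 0.11 (0.22) in Mettl5-cKO hearts, and Per1 at -0.31 (0.20) and -0.34 (0.20). Surgery and the table cannot be told apart here, and no test was made because the 3-month-old libraries chose the group. Hif3a and Mt2 were chosen for their difference at 3 months, so a smaller difference after TAC cannot be told apart from that choice.

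Some of the genes varied together from heart to heart within groups when the 3-month-old hearts, which chose the group, were included. Without those hearts no pair passed by Pearson's r. Each library's log2 CPM was taken relative to its group mean, and the 28 pairs of genes were correlated over the 24 heart libraries (permutation within groups, two-sided, Benjamini-Hochberg over the 28). The closest pair was Mt1 with Mt2 (Pearson's r = 0.851, p = 0.00064, adjusted p = 0.00896; Spearman's rho = 0.670, p = 0.003, permutation tests). Among the glucocorticoid-responsive genes, Fkbp5 correlated with Zbtb16 (r = 0.774, p = 0.0002, adjusted p = 0.0056; rho = 0.764, p = 0.00046, permutation tests) and Tsc22d3 with Zbtb16 (r = 0.765, p = 0.00144, adjusted p = 0.0134; rho = 0.690, p = 0.00224, permutation tests). Without the 2 libraries farthest from the median of the first gene, r was 0.619, 0.698 and 0.664 for these 3 pairs.

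Over all 28 pairs, r ranged from 0.03 to 0.85 with a median of 0.45, and 9 pairs had an adjusted p under 0.05. The remaining 6 of these 9 were Hif3a with Mt1, Sgk1 and Per1, Fkbp5 with Tsc22d3, Tsc22d3 with Per1, and Sgk1 with Per1, with r from 0.534 to 0.689. Mt2 was nearly unrelated to Tsc22d3 (r = 0.03, p = 0.858, adjusted p = 0.858; rho = -0.12, p = 0.604, permutation tests) and Zbtb16 (r = 0.08, p = 0.724, adjusted p = 0.811; rho = 0.03, p = 0.900, permutation tests). Control library 1 of 1 month carried much of this. Without it 4 pairs passed, Mt1 with Mt2 (r = 0.650), Fkbp5 with Zbtb16 (r = 0.804), Tsc22d3 with Zbtb16 (r = 0.752) and Hif3a with Sgk1 (r = 0.636), while Hif3a with Mt2 fell from 0.657 to 0.239. Over the 16 libraries left without the 3-month-old hearts, none of the 28 pairs passed, although r of Fkbp5 with Zbtb16 was still 0.608 and that of Mt1 with Mt2 0.885.

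**Figure D3:**
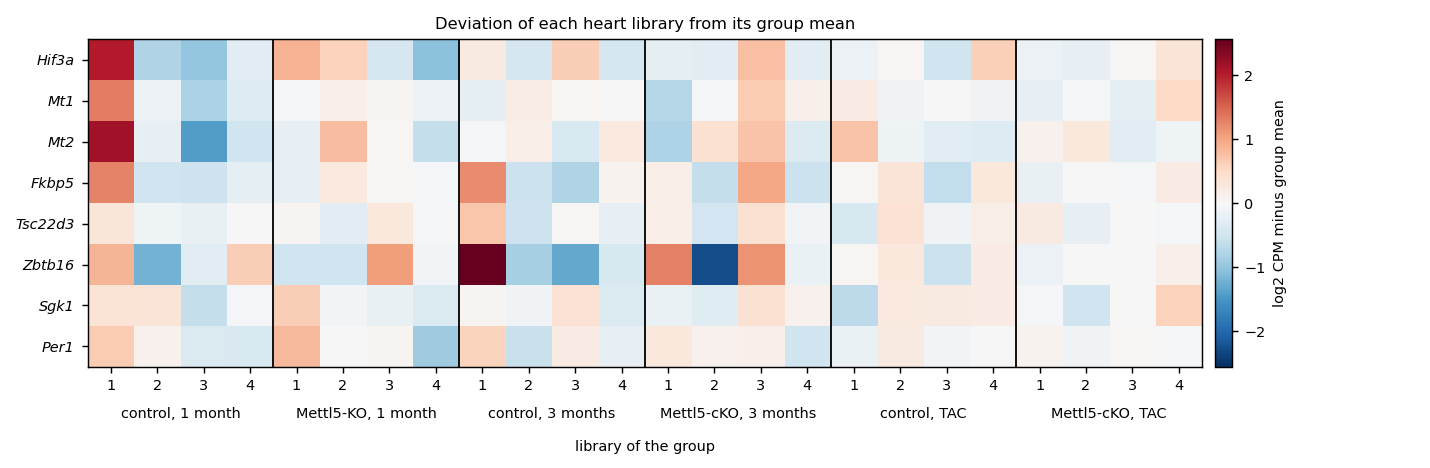
Deviation of each of the 24 heart libraries from its group mean (color, log2 CPM) for the 8 genes. Control library 1 of 1 month is high for most genes, and Fkbp5, Tsc22d3 and Zbtb16 are all above their group means in control library 1 and in Mettl5-cKO libraries 1 and 3 of 3 months.

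The genes whose deviations were most like those of Hif3a over the 24 heart libraries, among 15543 genes, were Sult1a1 (r = 0.898), a sulfotransferase, Prodh (0.882), which starts the breakdown of proline, Tapt1 (0.882) and Slc10a6 (0.879), a carrier of sulfated steroids. Those most like Mt2 were Cnksr1 (0.907), Cln6 (0.878), Pmm1 (0.859) and Mt1 (0.851). Those most like Fkbp5 were Pik3r1 (0.913), a regulatory subunit of PI3-kinase, Tor1aip1 (0.906), Glns-ps1 (0.900) and Ubr2 (0.893). These points share their libraries and scaling. Without control library 1 of 1 month the leading genes were Mindy4 for Hif3a (0.838), Cnksr1 for Mt2 (0.777) and Pik3r1 for Fkbp5 (0.937).

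A list of 37 other glucocorticoid-responsive genes was followed beside the 8, of which 34 passed the filter in the hearts. The list was chosen with earlier results of these data known. Its correlations include the 3-month-old hearts, which chose the group, and were not made again without those hearts. With Hif3a, 18 of the 34 (52.9%) had r over 0.5 across the 24 libraries, against 8.27% of all genes, and the median r was 0.52. Without control library 1 of 1 month these were 6 of 34 (17.6%), against 3.13% of all genes, with a median of 0.33. Sult1a1, the gene most like Hif3a, is itself on this list. With Fkbp5, 12 of the 34 (35.3%) had r over 0.5, against 8.85% of all genes, and without that library 10 of 34 (29.4%) against 11.6%. With Mt2 they were 5 of 34 (14.7%), against 6.20% of all genes, and 0 of 34 without that library, against 1.17%. Glul, glutamine synthetase, was among the closest to Fkbp5 (r = 0.836) and to Mt2 (0.789).

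Between the genotypes after TAC, 6 of the 34 listed genes were called higher (17.6%) and 1 lower (2.94%), beside 6.57% and 6.1% of all genes, and the median log2 fold change was 0.11 where that of all genes was -0.0035. Lcn2, the iron carrier lipocalin-2, rose from 8.20 ± 2.72 to 22.1 ± 5.32 CPM (log2 fold change 1.41, adjusted p = 0.0102 in edgeR). Anxa1, annexin A1, rose from 16.2 ± 2.05 to 30.5 ± 8.21 CPM (0.90, adjusted p = 0.0192) and Glul from 287 ± 32.2 to 465 ± 61.3 CPM (0.68, adjusted p = 0.0117), while the cell cycle inhibitor Cdkn1c fell from 19.1 ± 3.59 to 12.4 ± 2.41 CPM (-0.64, adjusted p = 0.0366). The count of 7 calls went to 2 without control library 4 or Mettl5-cKO library 2, where calls over all genes fell from 2071 to 479 and 536, and to 10 without Mettl5-cKO library 4, where they rose to 3899. At 1 month 0 of the 34 were called in edgeR (4 had an unadjusted p under 0.05) and 0 in DESeq2, with a median of -0.27 that was -0.07 without control library 1, and at 3 months the median was 0.33, with 27 of 34 above 0 (no test). Without Mettl5-cKO library 1 that median was 0.15, with 22 of 34 above 0, without control library 2 it was 0.17, with 24, and without control library 4 or Mettl5-cKO library 3 it was 0.19 and 0.21.

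Genes next to the receptor and to the other pathways of the 8 were read from further lists. Of 17 tested genes of the receptor and its chaperones, 1 was higher and 1 lower in Mettl5-cKO than in control hearts after TAC. These shares (5.88% each) were close to the 6.57% and 6.1% of all genes. Fkbp4, the co-chaperone that acts in place of FKBP5 on the receptor complex, was lower in Mettl5-cKO hearts, the opposite direction to Fkbp5. It stood at 187 ± 5.68 CPM in controls and 112.5 ± 29.8 in Mettl5-cKO hearts (log2 fold change -0.75, adjusted p = 0.0202 in edgeR). The heat shock protein gene Hspa4 was higher in Mettl5-cKO hearts by 0.36 (adjusted p = 0.0473 in edgeR). The receptor gene Nr3c1, named for its role and not by the rule for naming genes, stood at 39.7 ± 2.38 and 38.4 ± 3.37 CPM (log2 fold change -0.06, adjusted p = 0.664). Of 20 genes of zinc transport and metal response, 3 zinc importers (15%) were higher in Mettl5-cKO than in control hearts after TAC, and none was lower. These were Slc39a13 by 0.79, Slc39a6 by 0.63 and Slc39a11 by 0.89 (adjusted p = 0.00953, 0.0231 and 0.0374 in edgeR).

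Of 8 genes of the hypoxia-inducible factors and their regulators, Hif1a was higher in Mettl5-cKO than in control hearts after TAC. It stood at 28.3 ± 3.13 CPM in controls and 44.7 ± 9.46 in Mettl5-cKO hearts (log2 fold change 0.65, adjusted p = 0.0292 in edgeR). Epas1, which encodes HIF-2α, was lower, at 270 ± 26.2 CPM in controls and 205 ± 29.5 in Mettl5-cKO hearts (-0.41, adjusted p = 0.0491 in edgeR). Of 20 targets of these factors, Eno1 (0.51) and Slc2a1 (0.83) were higher in Mettl5-cKO hearts and none was lower. The 1 higher and 1 lower of the 8 made up 12.5% each and the 2 higher targets 10%. Of all genes 6.57% were called higher and 6.1% lower. None of 14 clock genes was called between the genotypes after TAC in edgeR, and 1 had an unadjusted p under 0.05. Of 11 genes of interleukin 6 and STAT3 signaling, which include Lcn2 and Junb, 8 were higher in Mettl5-cKO hearts and none was lower. They were led by Serpina3n (log2 fold change 3.32), Fgl2 (2.06) and Timp1 (2.93). Of 12 immediate early genes, which also include Junb, 5 were higher in Mettl5-cKO hearts, with Egr2 at 2.35, Nr4a1 at 1.32 and Junb at 0.89.

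In NRVMs with PE, AdMettl5 raised 5 of the 7 genes that could be tested. These 5 (71.4%) stand beside 27.1% of all 15041 genes called higher and 52.8% called in either direction (edgeR, adjusted p under 0.05). Fkbp5 stood at 20.3, 19.4, 18.03 and 19.7 CPM with AdGFP and at 27.9, 28.3, 27.6 and 27.0 with AdMettl5, a log2 fold change of 0.52 (SE 0.06, adjusted p = 1.24e-05 in edgeR). Per1 stood at 27.4, 32.3, 31.3 and 35.5 CPM and at 44.3, 47.5, 47.1 and 47.6, a log2 fold change of 0.56 (0.07, adjusted p = 4.00e-05). Sgk1 stood at 19.6, 21.3, 19.8 and 22.9 CPM and at 28.9, 32.3, 35.1 and 29.6, a log2 fold change of 0.59 (0.08, adjusted p = 4.50e-05). For these 3 genes every AdMettl5 library lay above every AdGFP library.

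Zbtb16 was low in NRVMs, with 18 to 32 counts in an AdGFP library and 39 to 60 in an AdMettl5 library. It went from 1.44 ± 0.369 to 3.00 ± 0.633 CPM (SD, n = 4), the largest log2 fold change of the 7 genes at 1.05 (SE 0.21, adjusted p = 0.00133 in edgeR) and the only 1 of the 5 over 1, where 5.85% of all genes were called with an absolute log2 fold change over 1. Mt1 went from 15.8 ± 2.15 to 22.2 ± 1.604 CPM (0.49, SE 0.09, adjusted p = 9.68e-04), and its groups did not overlap. The exact permutation test gave p = 0.0286 for each of the 5 genes, the smallest it can give, and groups that do not overlap, with AdMettl5 higher, made up 25.2% of all genes.

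Mt2A did not pass, with 46.4 ± 2.29 CPM under AdGFP and 50.5 ± 2.61 under AdMettl5 (log2 fold change 0.12, SE 0.06, adjusted p = 0.0857 in edgeR). It was called without AdMettl5 library 2 (adjusted p = 0.0364) and when libraries were scaled by their totals alone (log2 fold change 0.26, adjusted p = 0.00781). Tsc22d3 stood at 38.2 ± 2.39 and 35.9 ± 3.34 CPM (log2 fold change -0.09, adjusted p = 0.325), and its direction flipped to 0.05 with the totals alone. Hif3a had 0 counts in all 8 libraries, where 3 counts would be 0.166 to 0.209 CPM, so no level and no fold is given. These limits cover counting error only.

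**Figure D4:**
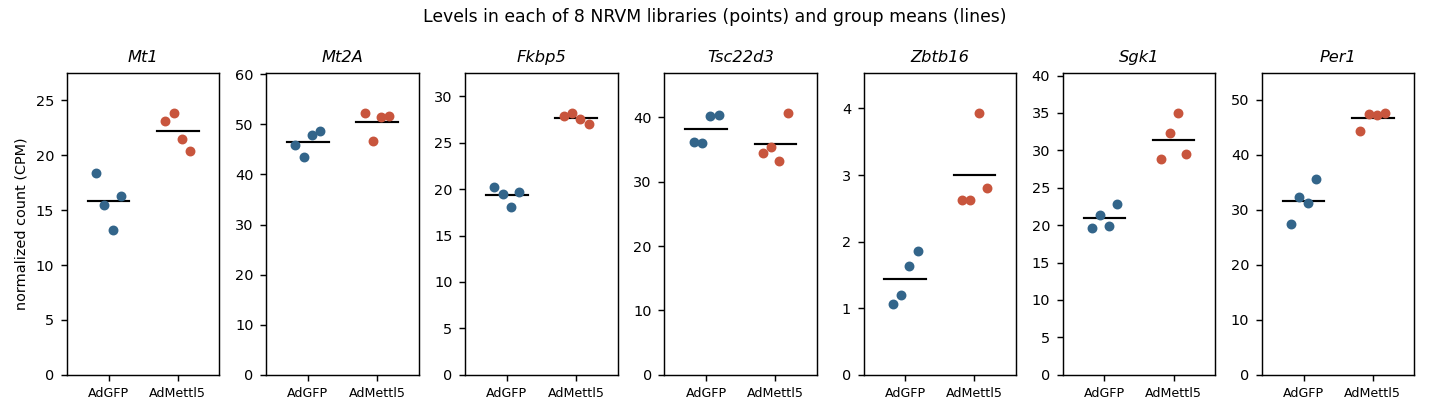
Normalized counts (CPM, axes from 0) of the 7 detected genes in each of the 8 NRVM libraries, with AdGFP in blue, AdMettl5 in red and group means as lines. All AdMettl5 libraries lie above all AdGFP libraries for Mt1, Fkbp5, Zbtb16, Sgk1 and Per1, and the groups overlap for Mt2A and Tsc22d3.

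Other glucocorticoid-responsive genes also differed between the viruses. Of 34 tested, 18 were higher (52.9%) and 5 lower (14.7%), beside 27.1% and 25.7% of all genes, with a median log2 fold change of 0.21. Rasd1, a small GTPase named for its induction by dexamethasone, went from 6.55 ± 0.493 to 33.1 ± 5.001 CPM (log2 fold change 2.34, adjusted p = 2.95e-08 in edgeR). Ddit4, an inhibitor of mTORC1, rose by 0.90 (adjusted p = 9.34e-08) and the cell cycle inhibitor Cdkn1a by 0.83 (adjusted p = 6.37e-07), while the clock gene Per2 fell by 0.61 on the log2 scale (adjusted p = 1.73e-06), the opposite direction to Per1.

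Of 17 genes of the receptor and its chaperones, 8 were higher with AdMettl5 (47.1%) and 1 lower (5.88%), beside 27.1% and 25.7% of all genes. Hsp90aa1 was at 0.86, Dnaja1 at 0.49, Ptges3 at 0.29 and Hspa8 at 0.26 on the log2 scale. Nr3c1 went from 152 ± 4.12 to 177 ± 6.59 CPM (log2 fold change 0.22, adjusted p = 0.00120 in edgeR). The 22 genes of zinc transport and metal response split into 8 higher and 9 lower, and the 14 clock genes into 4 higher and 5 lower. The 9 genes of the hypoxia-inducible factors split into 3 higher and 2 lower and their 20 targets into 5 higher and 5 lower. Of the 11 interleukin 6 and STAT3 genes 4 were higher and 1 lower, and of the 12 immediate early genes 2 were higher and 4 lower, Egr1 by -1.40.

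The marker genes of NRVMs moved with the virus as well, where 27.1% of all genes were called higher and 25.7% lower. All 10 cardiomyocyte markers were called lower with AdMettl5 (summed 32481 to 40069 CPM with AdGFP and 14603 to 16120 with AdMettl5), as were all 5 tested atrial markers, 7 of 8 fibroblast markers (summed 11558 to 12177 and 9133 to 10063 CPM) and 3 of 5 tested macrophage markers. The 7 endothelial markers went the other way at a low level (summed 42.0 to 45.1 and 55.9 to 60.5 CPM), with 1 of 6 tested called higher, Kdr at 0.86, and of 7 smooth muscle markers 2 were called higher and 1 lower. Their part in the values of the 7 genes was not tested.

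**Figure D5:**
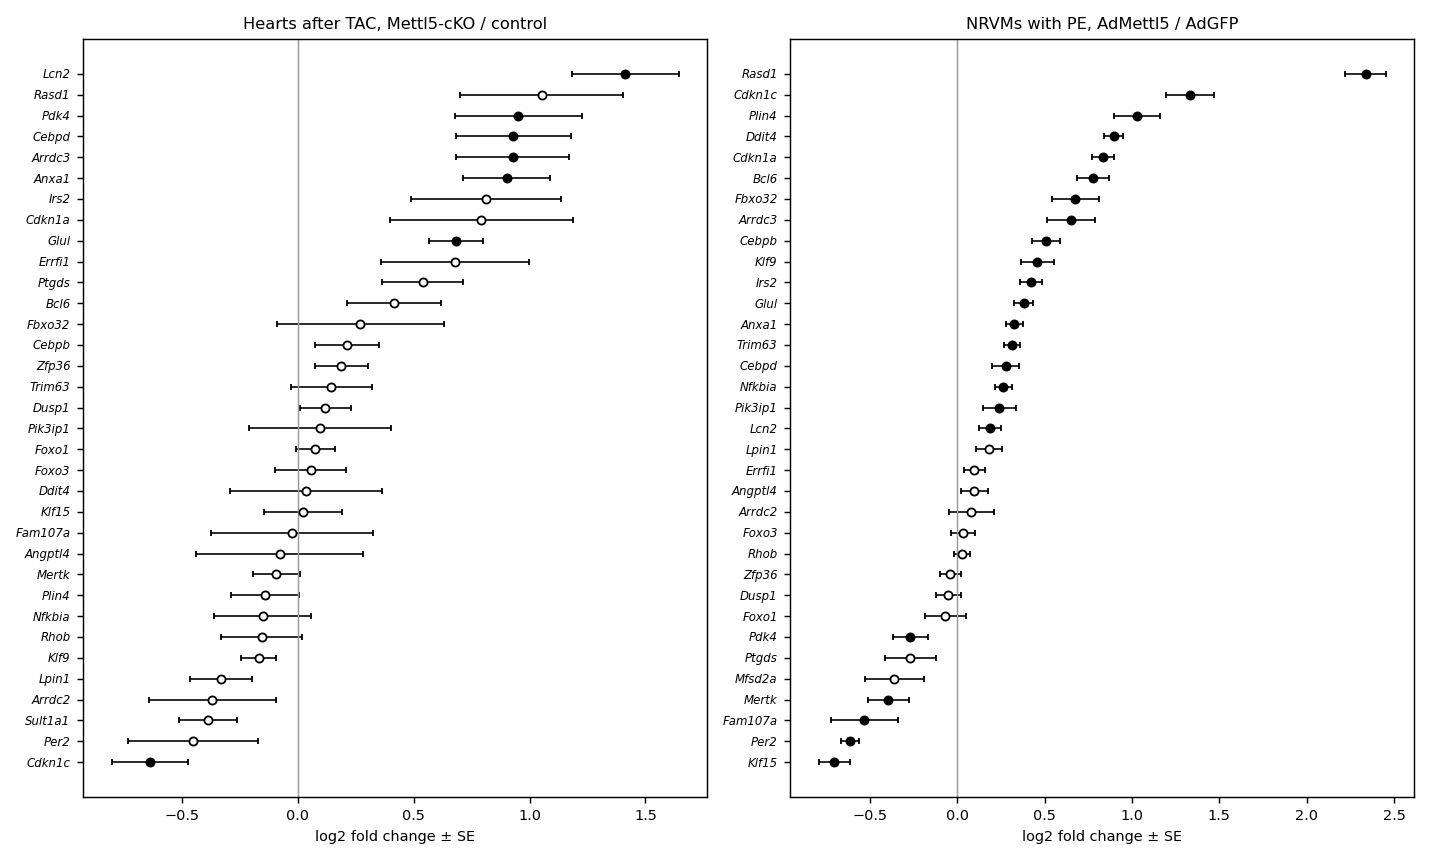
Log2 fold change (points) with standard error (bars) of the 34 tested genes of the list of other glucocorticoid-responsive genes, after TAC (left) and in NRVMs (right), with filled points where the adjusted p is under 0.05. After TAC 6 are called higher and 1 lower, and in NRVMs 18 higher and 5 lower.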

How the data were processed

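Gene tables of 24 mouse heart libraries and 8 NRVM libraries were used. The authors aligned reads with HISAT2 2.0.4 and deposited the estimated counts of each gene from StringTie 2.1.4 as whole numbers without scaling; rounding changed none, and they were tested as such although plain counts had been planned for. The mouse genes follow GRCm38. DESeq2 1.4.5 is also among the submitters' tools. Columns at 1 month and of AdMettl5 were matched to single samples, and the others to a group only, with libraries numbered by the ascending number in the column name.

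Genes kept by filterByExpr (a minimum count of 10 and a minimum total of 15) were tested table by table with glmQLFTest, the quasi-likelihood test of edgeR 4.0.16 in R 4.3.3, after TMM scaling, and p was adjusted after Benjamini and Hochberg over the genes tested in that table. Fold changes come from these fits. CPM of hearts use TMM over all 24 libraries and log2 CPM a prior count of 2. An exact permutation test (two-sided) of single genes ran over the 70 ways to label 4 against 4 libraries. Correlations used 100000 permutations within groups (Python 3.11.15, numpy 2.4.6). With 4 libraries in a group, log2 fold changes had median standard errors of 0.175 (1 month), 0.157 (3 months), 0.134 (TAC) and 0.0807 (NRVMs). P-values measure the spread between these libraries, and that each is a separate animal or culture is not stated.

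The 8 genes and the lists were chosen with earlier results of these data known. Besides the 8, genes were named by a rule: up to 4 genes of each list with the smallest p among those called after TAC and in NRVMs, and the 4 genes most like Hif3a, Mt2 and Fkbp5. No p adjusted over a list was made. Alternatives were DESeq2 1.42.0, its size factors in edgeR, library size alone, no filter, at least 10 counts in every sample, a block for the replicate number, a minimum fold change and leaving out each library. The pipeline was tested on simulated data. The closest pair of libraries of a group had a chi-square of 2.20 for each degree of freedom, so none was a duplicate. Promoter sequences are those of RefSeq, matched by symbol for 7 of the 8 genes.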

Additional observations from a re-analysis of the deposited data

Results flagged for a closer look

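Of the 62 sets of 4 libraries (a gene in a group) that were examined, 10 held a library that stood apart from the other 3 by Dixon's criterion, where chance gives about 1 in 20. Control library 1 of 1 month stood apart for Hif3a (12.7 CPM, others 1.47 to 2.50), Mt2 (71.0 CPM, others 5.83 to 13.7) and Fkbp5 (39.8 CPM, others 11.4 to 14.1). Among the 3-month-old hearts, Mettl5-cKO library 3 stood apart for Hif3a (6.85 CPM, others 3.24 to 3.36) and control library 1 for Zbtb16 (108 CPM, others 7.31 to 13.7). After TAC, control library 1 stood apart for Mt2 (71.6 CPM, others 34.5 to 39.7) and for Sgk1, where it was the low one (44.1 CPM, others 80.9 to 83.4). With AdMettl5, library 2 was low for Mt2A (46.6 CPM, others 51.4 to 52.4), library 3 high for Zbtb16 (3.94 CPM, others 2.62 to 2.80) and library 1 low for Per1 (44.3 CPM, others 47.1 to 47.6).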

How the results depend on the processing

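After TAC the count of called genes among the 8 went from 2 to 1 without a filter on low counts and to 1 with an absolute log2 fold change over 1, and ranged from 0 to 3 when a library was left out, while DESeq2 also called 2. Over all genes the calls went from 2071 to 1052 without the filter and ranged from 479 to 3899 with a library left out. The count of other glucocorticoid-responsive genes went from 7 to 3 without a filter and to 1 with the minimum fold change, and ranged from 2 to 10 with a library left out. In NRVMs the counts of 5 and 23 went to 1 and 3 with the minimum fold change, and ranged from 5 to 6 and from 20 to 22 with a library left out. At 1 month 0 of the 8 and 0 of the 34 were called in every setting. Of the 28 pairs, 9 passed over all libraries, 0 without the 8 libraries of 3 months, 13 with library size alone and 4 without control library 1 of 1 month, an alternative chosen after the data were seen.

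These single fold changes changed sign, none of them called in either fit. At 1 month, without control library 1, Hif3a went to 0.70, Mt1 to 0.16 and Mt2 to 0.43, the high ends of their ranges with a library left out, which began at -0.95, -0.73 and -1.23. Tsc22d3 at 1 month went from 0.01 to -0.027 without control library 2, -0.046 without control library 3, -0.0084 without Mettl5-KO library 1 and -0.085 without Mettl5-KO library 3, with a high end of 0.13, and Zbtb16 to -0.038 without Mettl5-KO library 3, with a high end of 0.79. Mt1 after TAC went to -0.087 without Mettl5-cKO library 4, with a high end of 0.20, and Tsc22d3 in NRVMs to 0.047 with library size alone. At 3 months, where no test was made, Per1 went from 0.16 to -0.0015 without control library 2, so that 6 to 7 of the 8 genes were above 0 with a library left out. The causes were not tested. Library size alone took the median of all genes from -0.0035 to 0.143 after TAC and from -0.0022 to 0.133 in NRVMs, and the share of higher genes among all calls from 51.9% to 79.7% and from 51.4% to 71.5%; of the 8 genes it called 2 higher and none lower after TAC and 6 higher and none lower in NRVMs.

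The replicate number could be used as a block at 1 month only, since the columns of the other tables carry no numbers shared by both groups. The same-numbered libraries correlated by -0.108 to 0.238 in their deviations, where the other pairs ranged from -0.282 to 0.192. Only 1 of 4 controls correlated best with its own number. Pairing by number was thus not evident, though so few pairs cannot exclude it. With the replicate block 0 of the 8 genes and 1 gene in all were called, as without it. Hif3a in hearts rests on 21 to 305 counts a library, so its fold changes carry the largest counting error of the 8.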
